A study of Mus musculus with 13 samples.

Results

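The insulin-like growth factor (IGF) system was followed through the RNA-Seq libraries of mouse endothelial cells (ECs) from a study of Apelin loss. It was taken as 9 genes chosen by symbol, namely the ligands Igf1 and Igf2, the receptors Igf1r, Igf2r and Insr, and the binding proteins Igfbp3, Igfbp4, Igfbp5 and Igfbp7. All 9 were listed among the 24984 genes counted in the tumor ECs and among the 24421 genes counted in the sprout ECs, and all 9 passed the filter on low counts in both. The tumor ECs were DAPI-, CD45-, CD31+ and CD105+ cells from tumors of E0771, a mouse mammary carcinoma line, with 100 cells sorted for each library. The knockout group (KO, n = 3) came from shApln tumors in Apln-/- C57BL6/J mice and the wild-type group (WT, n = 6) from shRenilla tumors in wild-type mice, so Apelin was removed from the tumor cells and the host together and the part of each cannot be told apart. The ages of the mice were not given in the sources used here. The sprout ECs were CD31+ cells from embryoid bodies that sprouted under 30 ng/ml of the growth factor VEGFA164. They derived from a haploid mouse embryonic stem cell clone with a gene trap in Apln, with the trap in sense orientation (n = 2) or in antisense orientation after Cre reversion (n = 2). Both sprout groups are thus sister lines of 1 clone, and the study's text sets the sense line under DMSO against the antisense line under Apelin, a treatment that the sample labels do not give. Where nothing states that libraries came from separate animals or cultures, the p-values below measure only the spread between these libraries.

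In the IGF system, secreted IGF1 and IGF2 activate the receptor tyrosine kinase IGF1R and, in part, the insulin receptor, which signal through insulin receptor substrates to PI3K and AKT and through SHC and GRB2 to the MAP kinases. IGF2R takes up IGF2 and delivers it to lysosomes without such signaling. Secreted binding proteins hold the ligands, and proteases such as pregnancy-associated plasma protein A release them. Igf2 is an imprinted gene that is highly active in the embryo, and ECs are known as a source of several of the binding proteins.

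The checks of the labels differed between the 2 sets of ECs. In the tumor ECs, Apln was at 12.1, 8.51 and 2.44 CPM (counts in every 1000000 of the TMM library size) in the KO libraries and between 416 and 1033 CPM in the WT libraries, and the sort markers Pecam1 and Eng were present in every library at 1007 CPM or more. In the sprout ECs, Apln was at 66.1 and 80.2 CPM in the sense libraries and at 58.2 and 65.9 CPM in the antisense libraries. It was therefore not lower in the libraries labelled sense (log2 fold change 0.24, SE 0.16, edgeR adjusted p = 0.367), and each direction below is one between labels. The study reports that the sense trap disrupted Apln mRNA, with RT-qPCR in the stem cells, and places the trap after the first exon. Counts per gene do not separate reads before the trap from reads after it, so they do not test that report. The 13 endothelial markers summed to 722 and 962 CPM in the sense libraries and to 2883 and 2732 CPM in the antisense libraries, and 12 of the 13 were called lower. The 10 pluripotency markers summed to 5717 and 5548 CPM in the sense libraries and to 2241 and 3614 CPM in the antisense libraries. By edgeR 1 of them was called higher, and by DESeq2 2 were. At an unadjusted edgeR p under 0.05, 9 of the 10 were higher, where 26.7% of all genes tested passed in either direction. Their median log2 fold change was 0.87. The sorted sprout cells thus held RNA of the stem cell markers in both groups, and in bulk samples fewer cells of a type and less RNA per cell cannot be told apart. Library totals were 4661044 to 14455093 counts in the tumor ECs and 12327030 to 16804071 counts in the sprout ECs, so that 3 counts, a level a count of 0 allows, correspond to 0.211 to 0.596 CPM and 0.177 to 0.244 CPM. These floors cover counting error only.

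In the sprout ECs, 1 of 2 ligands (Igf2) and 1 of 4 binding proteins (Igfbp4) fell in the libraries labelled sense, past the thresholds of an adjusted p under 0.05 and a log2 fold change over 1 in size. These 2 of 9 members, both lower, stand beside 3.88% of the 14557 genes tested that were called in either direction and 3.03% that were called lower. Groups that did not overlap were seen for 7 of the 9 members, of which 6 were lower and 1, Igf2r, was higher, but 60.6% of all genes tested had no overlap between these groups of 2 (29.6% lower and 31% higher). The median log2 fold change of the members was -1.30 (8 lower and 1 higher), against 0.0052 over all genes tested, of which 49.5% were below 0. In the tumor ECs 0 of 9 members were called by edgeR's quasi-likelihood test, where 0.00765% of the 13073 genes tested were called, namely Apln alone. At an unadjusted p under 0.05, 2 members were higher in the KO libraries, Igf1 and Insr, where 4.81% of all genes were past this limit and 1.87% were past it with higher values. With the DESeq2 Wald test 1 member, Igf1, was called in the tumor ECs (0.825% of genes given an adjusted p were called and 0.135% were called higher) and 4, Igf1, Igf2, Igfbp3 and Igfbp4, all lower, were called in the sprout ECs (6.15% were called and 4.68% were called lower). Igf1 was also the 1 member whose tumor groups did not overlap, where 2.33% of genes had no overlap and 1.06% had none with higher values. The median log2 fold change of the members in the tumor ECs was 0.41 (6 higher and 3 lower), against -0.028 over all genes tested, of which 51.9% were below 0.

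**Figure D1:**
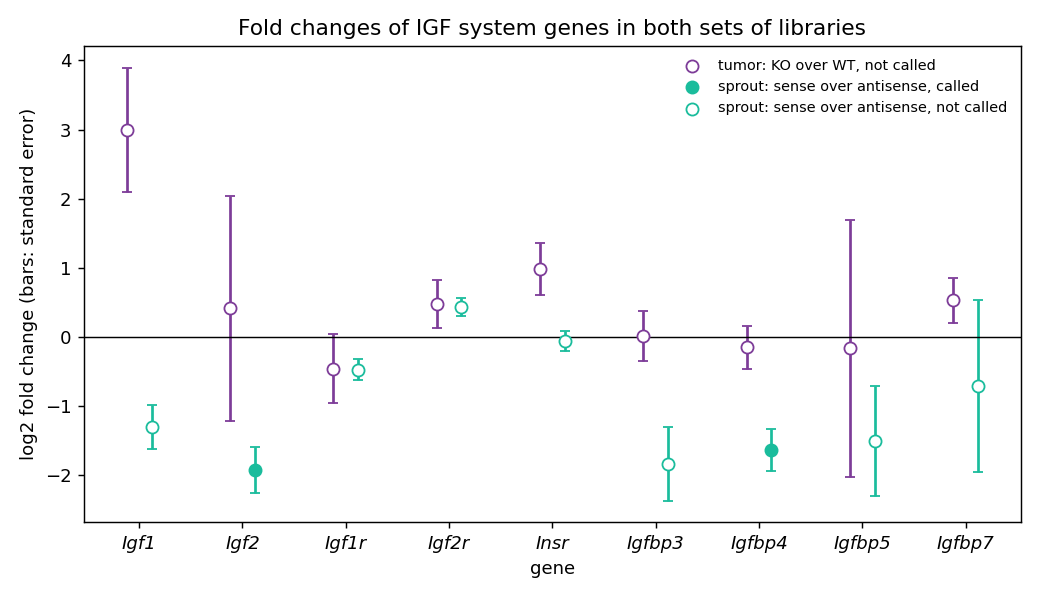
Log2 fold change of each of the 9 members with its standard error, KO over WT in the tumor ECs and sense over antisense in the sprout ECs, from the edgeR fit of each set over all genes. In the sprout ECs Igf2 (-1.91) and Igfbp4 (-1.63) were called, and in the tumor ECs Igf1 lay highest at 3.00 with a standard error of 0.90 and was not called.

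Igf2, the ligand of fetal growth, fell in the libraries labelled sense. It was at 665 and 1132 CPM in the sense libraries and at 4092 and 2681 CPM in the antisense libraries. The lowest antisense library was thus above the highest sense library, and the means were 899 ± 330 CPM (SD, n = 2) and 3386 ± 998 CPM (SD, n = 2). The sense over antisense log2 fold change was -1.91 (SE 0.33, edgeR adjusted p = 0.0351). DESeq2 gave an adjusted p of 1.45e-09. The call was lost with rounded RSEM expected counts (log2 fold change -1.94, edgeR adjusted p = 0.0565). It was also lost with a block for the replicate number (log2 fold change -1.93, edgeR adjusted p = 0.115). Leaving out sense replicate 1 (log2 fold change -1.56), antisense replicate 1 (-1.58) or antisense replicate 2 (-2.18) lost the call as well. The direction was the same under all 11 alternatives. The summed endothelial markers were lower in the same libraries. The 13 endoderm markers of embryoid bodies summed to 100.0 and 164 CPM in the sense libraries and to 426 and 288 CPM in the antisense libraries. Of these, 3 (Gata4, Sox17 and Afp) were called lower, Afp at 2 and 5 counts against 26 and 42. Hnf4a (log2 fold change 0.19), Amn (0.24) and Apoa2 (0.024) went the other way. Sox17 was also the highest gene of this list in the tumor ECs. The 10 mesenchyme and cardiac markers summed to 60.4 and 153 CPM against 251 and 116 CPM. Of these, 2 (Actc1 and Tnnt2) were called lower, while Myl7 had higher values in the sense libraries (log2 fold change 0.73) and was not called. Within each group, the library with the higher Igf2 also had the higher sum of these lists and of the fibroblast markers given below. The part of these cell types in the Igf2 difference was not tested.

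Igf2 was sparse and uneven in the tumor ECs. The KO libraries had 0.850, 8.51 and 14.1 CPM, and the WT libraries had 20.3, 0, 12.9, 2.18, 0 and 0 CPM. No counts were seen in 3 of the 6 WT libraries, whereas the highest single value was also in a WT library. The log2 fold change was 0.41 with a standard error of 1.62 (edgeR adjusted p = 1.00), and it was -0.32 without KO replicate 3, 1.37 without WT replicate 1 and 2.51 with limma voom and sample weights.

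In the mouse genome (RefSeq, GRCm38.p6, the assembly that mm10 names) Igf2 lies at chr7:142650768-142666816. H19, the imprinted noncoding RNA gene beside it, lies at chr7:142575530-142578146, with 72621 bases between the genes. The antisense noncoding gene Igf2os overlaps Igf2 by 7137 bases. H19 was at 1652 and 3819 CPM in the sense libraries and at 8681 and 5127 CPM in the antisense libraries, a log2 fold change of -1.34 (SE 0.52, edgeR adjusted p = 0.212). Igf2os fell in the libraries labelled sense, from 39.8 and 23.3 CPM in the antisense libraries to 8.06 and 9.69 CPM (log2 fold change -1.83, SE 0.29, edgeR adjusted p = 0.0171). The sources used here do not say whether reads were counted by strand, so reads of Igf2 and Igf2os cannot be told apart over the shared bases. H19 was at 0 to 2.25 CPM in the tumor ECs.

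**Figure D2:**
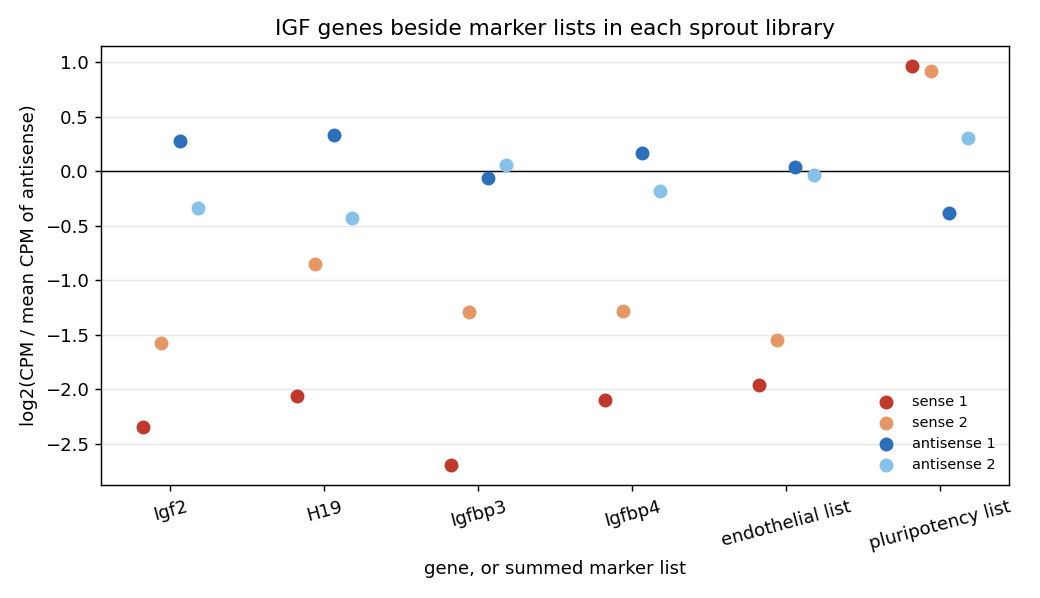
Level of Igf2, H19, Igfbp3 and Igfbp4 and the summed level of the endothelial and pluripotency marker lists in each sprout EC library, as log2 of the CPM over the mean CPM of the antisense libraries, with 1 point per library. The endothelial sums are lower in the sense libraries (722 and 962 CPM against 2883 and 2732 CPM), as are the 4 genes, and the pluripotency sums are higher (5717 and 5548 CPM against 2241 and 3614 CPM).

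Igf2 is transcribed from several promoters, and 2 of its start sites had a window without annotated exons. They are shown because Igf2 had the largest called change among the members, together with the window of Igfbp4, the other called member, and that of Igf2r, the 1 member with higher values and no overlap in the sprout ECs. Each holds the 250 bases before a start site, on the strand of the gene and from RefSeq on GRCm38.p6, which is the minus strand for Igf2 and Igf2r and the plus strand for Igfbp4. Capitals mark matches to 4 short motifs on either strand. The GC box, which Sp1 binds, was searched as GGGCGG. The TATA box was searched as TATAAA. The core of the hypoxia response element was searched as ACGTG. The forkhead box O site was searched as GTAAACA.
Igf2 at chr7:142666817-142667066: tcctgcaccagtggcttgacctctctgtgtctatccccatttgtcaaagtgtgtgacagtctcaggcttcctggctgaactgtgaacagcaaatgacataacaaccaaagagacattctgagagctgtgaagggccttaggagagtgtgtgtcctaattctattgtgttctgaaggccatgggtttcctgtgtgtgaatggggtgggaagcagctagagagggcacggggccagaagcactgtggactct
Igf2 at chr7:142657497-142657746: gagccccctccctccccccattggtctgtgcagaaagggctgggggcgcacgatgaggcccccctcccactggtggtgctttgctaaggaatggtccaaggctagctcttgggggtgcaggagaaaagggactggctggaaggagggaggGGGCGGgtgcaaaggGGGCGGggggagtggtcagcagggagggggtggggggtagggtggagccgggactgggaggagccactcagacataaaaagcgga
Igfbp4 at chr11:99040994-99041243: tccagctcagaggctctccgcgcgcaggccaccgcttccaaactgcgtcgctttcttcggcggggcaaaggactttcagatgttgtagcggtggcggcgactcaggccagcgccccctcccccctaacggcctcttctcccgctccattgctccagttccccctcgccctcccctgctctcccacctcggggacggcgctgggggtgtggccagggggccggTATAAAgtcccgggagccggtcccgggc
Igf2r at chr17:12769707-12769956: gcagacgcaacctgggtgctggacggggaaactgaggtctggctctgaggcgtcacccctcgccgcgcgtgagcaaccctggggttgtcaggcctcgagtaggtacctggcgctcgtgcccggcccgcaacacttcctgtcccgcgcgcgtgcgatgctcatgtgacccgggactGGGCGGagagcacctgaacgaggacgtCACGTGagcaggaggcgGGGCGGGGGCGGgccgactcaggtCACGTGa
The first Igf2 window held 0 of these matches and had a GC content of 50.8%, and the second held 2 GC boxes at 66% GC. The Igfbp4 window held 1 TATA box at 69.2% GC. The Igf2r window held 3 GC boxes and 4 matches to the hypoxia core, the latter from CACGTG, in which the core reads on both strands and is counted on each. Of 32851 windows of the same length over all genes, 32.7% held a GC box, 12.4% a TATA box, 16.6% the hypoxia core and 3.17% the forkhead site. A match describes letters in the window and is no measurement of binding. Of the members, 8 had an entry in the promoter table, and Insr had none.

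Igf1, the ligand of postnatal growth that many cell types secrete, was low in both sets of ECs. Its log2 fold changes had opposite signs in the 2 sets, and edgeR called it in neither. In the tumor ECs it was at 18.2, 6.19 and 24.6 CPM in the KO libraries (107, 88 and 202 counts) and at 1.46, 0.879, 4.91, 2.78, 0.695 and 1.41 CPM in the WT libraries (8, 9, 50, 14, 4 and 10 counts). All 3 KO libraries were above all 6 WT libraries, although the lowest KO library was close to the highest WT library. The means were 16.3 ± 9.35 CPM (SD, n = 3) and 2.02 ± 1.59 CPM (SD, n = 6). The log2 fold change of Igf1 was 3.00 (SE 0.90, edgeR adjusted p = 0.906, unadjusted p = 0.00424). With DESeq2 the log2 fold change was 3.01 and the adjusted p was 0.0143, the lowest of the 16 alternatives, which reached up to 1.00. The fold change stayed between 2.57 and 3.49 when each library was left out.

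Macrophages are a known source of Igf1. The sort kept CD45- cells, a gate meant to leave out macrophages, but RNA of their markers was present. The 11 macrophage markers summed to 1055, 54.8 and 99.4 CPM in the KO libraries and to 69.1 to 634 CPM in the WT libraries. Lyz2 made up much of the high sums, with 601 CPM in KO replicate 1 and 455 CPM in WT replicate 4 and 2.18 to 23.1 CPM in the other libraries. In KO replicates 1, 2 and 3 in turn, Igf1 was at 18.2, 6.19 and 24.6 CPM beside these macrophage sums, and in WT replicate 4, with the highest WT sum, it was at 2.78 CPM. The 10 fibroblast markers summed to 46.5 to 326 CPM in the KO libraries and to 68.3 to 5151 CPM in the WT libraries, the highest being WT replicate 2, where Igf1 was at 0.879 CPM. The part of macrophage or fibroblast RNA in the Igf1 values was not tested.

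In the sprout ECs Igf1 was at 4.47 and 7.66 CPM in the sense libraries and at 15.5 and 14.2 CPM in the antisense libraries. The groups did not overlap, and the log2 fold change of -1.30 (SE 0.31) missed the threshold with an edgeR adjusted p of 0.0505. DESeq2 gave an adjusted p of 0.00814, the adjusted p without a filter was 0.00614, and the highest was 0.265 without sense replicate 1.

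**Figure D3:**
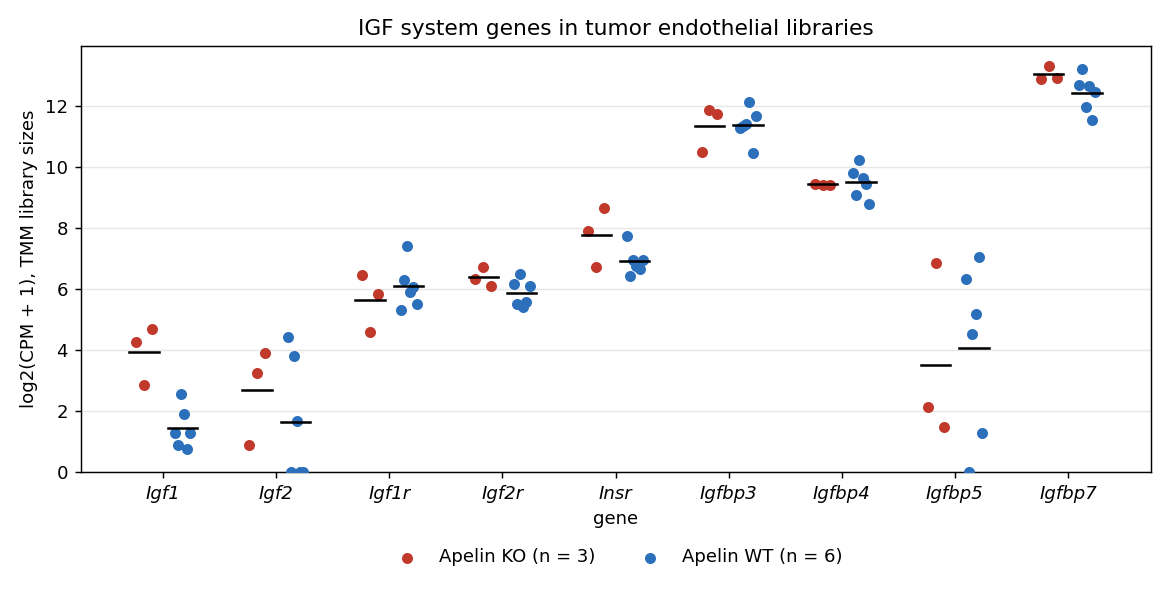
Level of each member in each tumor EC library as log2(CPM + 1), with 3 KO and 6 WT libraries as points and the means of these log values as lines. The 3 KO libraries of Igf1 (6.19 to 24.6 CPM) sit above the 6 WT libraries (0.695 to 4.91 CPM), and the groups of the other 8 members overlap.

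Of the 3 receptors 0 were called in either set of ECs by edgeR's quasi-likelihood test or by DESeq2, while Igf1r and Igf2r in the sprout ECs and Insr in the tumor ECs had an unadjusted p under 0.05, a limit that 26.7% of all genes tested in the sprout ECs passed. Igf1r, the signaling receptor of both IGFs, was at 113 and 99.0 CPM in the sense libraries and at 160 and 134 CPM in the antisense libraries of the sprout ECs. The groups did not overlap, and the log2 fold change was -0.47 (SE 0.15, edgeR adjusted p = 0.0983). Tumor ECs had Igf1r at 87.5, 23.0 and 55.6 CPM in the KO libraries and at 38.4, 77.9, 169, 58.6, 65.8 and 44.5 CPM in the WT libraries. The KO libraries had both the lowest and the second highest value, and the log2 fold change was -0.46 (SE 0.50). It was -0.96 without KO replicate 1, -0.093 without KO replicate 2 and -0.046 without WT replicate 3.

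Igf2r, the clearance receptor of IGF2 and carrier of lysosomal enzymes, was the only member higher in the sense libraries without overlap. It was at 298 and 279 CPM in the sense libraries and at 205 and 222 CPM in the antisense libraries (log2 fold change 0.44, SE 0.13, edgeR adjusted p = 0.0950), opposite in direction to its ligand Igf2. DESeq2 gave an adjusted p of 0.0365 with a log2 fold change of 0.43, below the fold threshold. Airn, the noncoding antisense transcript that overlaps Igf2r by 28396 bases at chr17:12741311-12859884, was at 5.15 and 7.74 CPM in the sense libraries and at 26.1 and 13.1 CPM in the antisense libraries (log2 fold change -1.61, SE 0.39, edgeR adjusted p = 0.0590). As for Igf2os, the shared bases limit how far reads of Airn and Igf2r can be told apart. Tumor ECs had Igf2r at 79.7, 104 and 67.8 CPM in the KO libraries and at 70.9, 44.7, 89.6, 41.3, 47.1 and 67.2 CPM in the WT libraries, and the groups overlapped (log2 fold change 0.48, SE 0.35).

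Insr, the insulin receptor, which also binds IGF2 in 1 of its isoforms, did not separate the sprout groups. It was at 83.8 and 94.4 CPM in the sense libraries and at 99.9 and 85.2 CPM in the antisense libraries (log2 fold change -0.055, SE 0.15), and the sign turned without sense replicate 1 (0.048) or antisense replicate 1 (0.064). Tumor ECs had Insr at 236, 104 and 402 CPM in the KO libraries and at 210, 85.4, 124, 107, 99.5 and 122 CPM in the WT libraries. KO replicates 1 and 3 were above every WT library, and KO replicate 2 was within the WT range. The log2 fold change was 0.99 (SE 0.38, edgeR adjusted p = 0.957, unadjusted p = 0.0190), and it was 0.44 without KO replicate 3 and 1.35 without KO replicate 2.

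Among the binding proteins, Igfbp4 fell in the libraries labelled sense and 2 others had lower values there without overlap, as did 29.6% of all genes tested. Igfbp4, which holds IGFs away from their receptor until it is cleaved, was at 156 and 275 CPM in the sense libraries and at 749 and 589 CPM in the antisense libraries. These groups were separated by more than their spread, with means of 216 ± 84.4 and 669 ± 113 CPM (SD, n = 2 each) and a log2 fold change of -1.63 (SE 0.30, edgeR adjusted p = 0.0401). For Igfbp4, DESeq2 gave an adjusted p of 1.06e-07. Its call was lost with RSEM expected counts (log2 fold change -1.66, edgeR adjusted p = 0.0552). It was also lost with a block for the replicate number (log2 fold change -1.68, edgeR adjusted p = 0.114). Leaving out sense replicate 1 (log2 fold change -1.26), antisense replicate 1 (-1.45) or antisense replicate 2 (-1.79) lost the call as well. As for Igf2, the direction held in all 11 alternatives. In the same comparison the 13 endothelial markers had a median log2 fold change of -1.95. The part of endothelial RNA in the values of Igfbp4, and of Igfbp3 below, was not tested.

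Igfbp3, the main carrier of IGFs in blood, was at 280 and 739 CPM in the sense libraries and at 1737 and 1892 CPM in the antisense libraries. The antisense libraries were close to each other and the sense libraries differed from each other, and the log2 fold change of -1.83 (SE 0.53, edgeR adjusted p = 0.142) was not called. The log2 fold change was -2.71 without sense replicate 2 (edgeR adjusted p = 0.00105) and -1.27 without sense replicate 1 (0.0630), and without antisense replicates 1 or 2 the adjusted p was 0.591 or 0.358. Igfbp5, a binding protein that attaches to extracellular matrix, was at 65.9 and 176 CPM in the sense libraries and at 478 and 204 CPM in the antisense libraries (log2 fold change -1.50, SE 0.80, edgeR adjusted p = 0.358). That value was -0.76 without antisense replicate 1, -0.94 without sense replicate 1 and -2.39 without sense replicate 2.

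Igfbp7, a vascular matrix protein that binds IGFs only weakly, was at 18.4 and 96.8 CPM in the sense libraries and at 145 and 41.4 CPM in the antisense libraries. Its groups overlapped (log2 fold change -0.71, SE 1.24, edgeR adjusted p = 0.771), and the log2 fold change was 0.059 without sense replicate 1 and 0.47 without antisense replicate 1. The 10 fibroblast markers moved in the same libraries, with sums of 581 and 3082 CPM in the sense libraries and of 3053 and 699 CPM in the antisense libraries. The 10 mural cell markers summed to 281 and 470 CPM in the sense libraries and to 701 and 307 CPM in the antisense libraries. Igfbp5, Igfbp7 and also Igf1, Igf2, Insr and Igfbp4 were likewise higher in sense replicate 2 than in sense replicate 1. They were also higher in antisense replicate 1 than in antisense replicate 2. The part of fibroblast or mural cell RNA in these values was not tested.

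**Figure D4:**
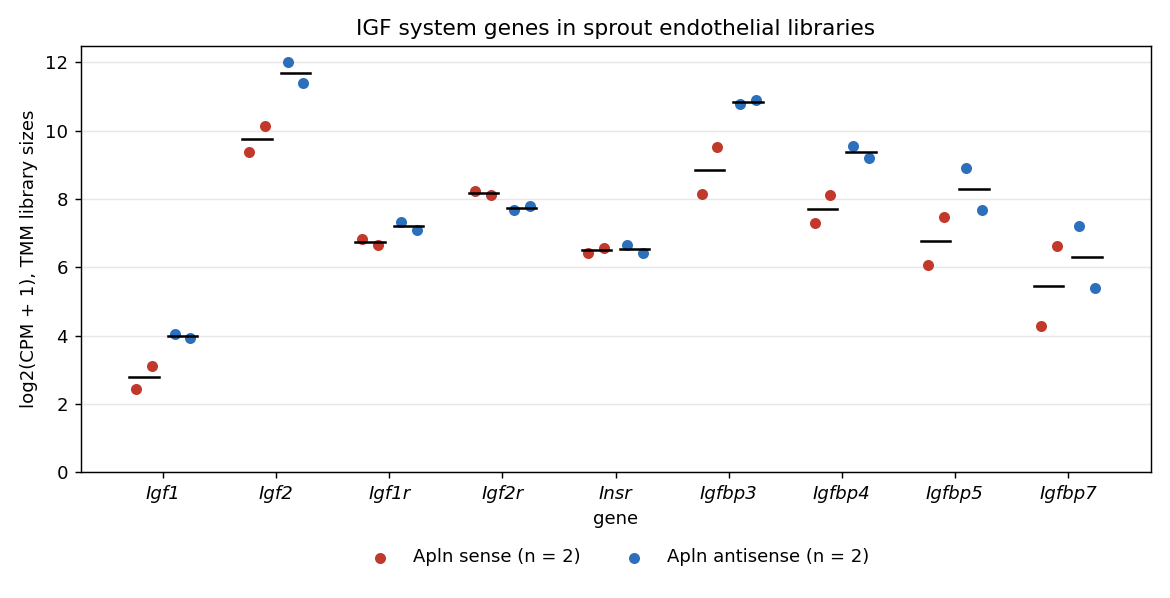
Level of each member in each sprout EC library as log2(CPM + 1), with 2 sense and 2 antisense libraries as points and the means of these log values as lines. Igf2 (665 and 1132 against 4092 and 2681 CPM) and Igfbp4 (156 and 275 against 749 and 589 CPM) are apart, and Insr and Igfbp7 overlap.

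The same 4 binding proteins did not separate the groups of tumor ECs. Igfbp7 was at 7520, 9980 and 7599 CPM in the KO libraries and at 6569, 9457, 3916, 6321, 2933 and 5545 CPM in the WT libraries. Although all 3 KO libraries were above 5 of the 6 WT libraries, WT replicate 2 lay among them, and the log2 fold change was 0.53 (SE 0.33). Igfbp3 was at 1420, 3693 and 3354 CPM in the KO libraries and at 2444, 2590, 2680, 4470, 1395 and 3196 CPM in the WT libraries, a log2 fold change of 0.014 (SE 0.36) that took either sign as single libraries were left out. Igfbp4 was at 691, 680 and 678 CPM in the KO libraries, which lay within the WT values of 892, 541, 1192, 787, 689 and 443 CPM (log2 fold change -0.15, SE 0.31, and 0.028 without WT replicate 3). Igfbp5 varied most, with 3.40, 115 and 1.83 CPM in the KO libraries and 79.9, 0, 22.3, 34.9, 131 and 1.41 CPM in the WT libraries. Each group thus held libraries near 0 and a library above 100 CPM, and the log2 fold change was -0.16 with a standard error of 1.86 and took values from -4.11 (without KO replicate 2) to 0.54 (without WT replicate 5). The edgeR adjusted p of these 4 binding proteins was 1.00.

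Per length of transcript, Igfbp7, Igfbp3 and Igfbp4 stood above the receptors and ligands in the tumor ECs, and Igfbp5 did not. Levels are given here as counts per kilobase scaled to a fixed total over all genes, as TPM are, with transcript lengths from the RSEM tables, which 23629 of 24984 genes matched. In the WT libraries Igfbp7 was at 10314 ± 4292 (SD, n = 6), Igfbp3 at 2247 ± 919 and Igfbp4 at 726 ± 314. Insr followed at 25.3 ± 8.85, Igfbp5 at 14.1 ± 15.0, Igf2r at 12.9 ± 4.82, Igf1r at 12.5 ± 9.16, Igf2 at 3.07 ± 4.40 and Igf1 at 0.636 ± 0.559. The ranges of Igfbp3 and Igfbp4 met, but Igfbp3 was above Igfbp4 in each WT library. From Insr downward each gene's range met that of the next, so the order of these genes is not resolved. In the KO libraries Igfbp7 was again highest at 14544 ± 2836 (SD, n = 3). The mean of Igf2 was lowest at 3.76 ± 3.09, just below that of Igf1 at 4.71 ± 2.55. The KO ranges also met from Insr downward, and in KO replicate 2 Igf1 (1.86) was below Igf2 (4.31). Of the summed per-length level of the 4 binding proteins, Igfbp7 took 80.3% to 88.2% in the KO libraries and 68.1% to 86.7% in the WT libraries.

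In the sprout ECs the deposited TPM, a level per transcript length, put the group mean of Igf2 first among the 9 members. Igfbp3 was above Igf2 in sense replicate 2 and antisense replicate 2. In the antisense libraries Igf2 was at 1388 ± 506 TPM (SD, n = 2), Igfbp3 at 1174 ± 20.9 TPM and Igfbp4 at 506 ± 125 TPM, followed by Igfbp7 at 137 ± 115, Igfbp5 at 90.9 ± 57.6, Igf2r at 37.0 ± 0.636, Igf1r at 18.9 ± 3.71, Insr at 16.0 ± 2.5 and Igf1 at 3.52 ± 0.467 TPM. In the sense libraries Igf2 was at 322 ± 113 TPM, Igfbp3 at 292 ± 183 TPM and Igfbp4 at 144 ± 53.5 TPM, and Igf2r at 44.6 ± 2.84 TPM stood above Igfbp5 at 28.0 ± 17.1 TPM. The ranges of Igf2 and Igfbp3 met in both groups. Igfbp3 took 52.9% to 55.1% of the summed TPM of the 4 binding proteins in the sense libraries and 55.7% to 68.9% in the antisense libraries. Igfbp2, which is not among these 4, was at 1934 ± 103 TPM in the sense libraries and 1183 ± 226 TPM in the antisense libraries. It was above Igfbp3 and Igf2 in each sense library, and its range met that of Igfbp3 in the antisense libraries. The tumor and sprout values come from different library protocols and length scales, so their levels are set side by side without a test.

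**Figure D5:**
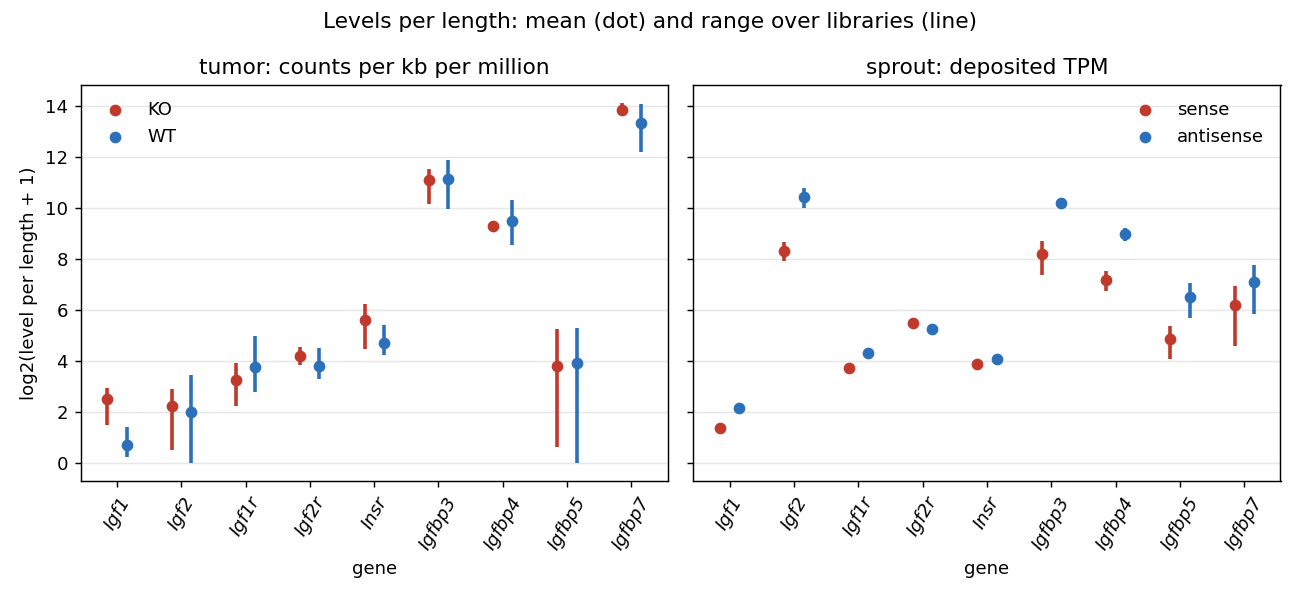
Per-length level of each member as log2(level + 1), with the group mean as a dot and the range over libraries as a line, for KO and WT tumor ECs (counts per kilobase scaled as TPM) and sense and antisense sprout ECs (TPM). Igfbp7 is highest in the tumor ECs (14544 in KO, 10314 in WT), and the group mean of Igf2 is highest in the sprout ECs (322 TPM in sense, 1388 TPM in antisense), where its range meets that of Igfbp3.

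The binding proteins outside the members were Igfbp1, Igfbp2, Igfbp6, Igfbpl1 and Igfals, of which 4 were tested in the sprout ECs. Of these 0 were called by edgeR's quasi-likelihood test or DESeq2 and 1, Igfbp2, had an unadjusted p under 0.05. Igfbp2, an IGF carrier that neighbours Igfbp5 on chromosome 1 with 5590 bases between them, was at 1712 and 1891 CPM in the sense libraries and at 802 and 1176 CPM in the antisense libraries. It differed from the 4 member binding proteins in sign, with a log2 fold change of 0.86 (SE 0.21, edgeR adjusted p = 0.0506). Of the 5, 2 were tested in the tumor ECs, with 0 called by either tool and 0 at an unadjusted p under 0.05. Igfbp2 was at 1.08 CPM or less in every tumor library, and Igfbp6 was at 170 CPM in WT replicate 2 and at 1.13 to 42.1 CPM in the others, WT replicate 2 being also the library with the highest fibroblast sum.

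Of the 11 proteases of binding proteins and their inhibitors, 8 were tested in the sprout ECs and 1, Stc1, was called (2 with DESeq2, which added Pappa), where 3.88% of all genes were called by edgeR and 6.15% by DESeq2. Stc1, which encodes a stanniocalcin that inhibits pregnancy-associated plasma proteins, fell from 50.3 and 39.1 CPM in the antisense libraries to 15.9 and 23.8 CPM in the sense libraries (log2 fold change -1.17, SE 0.24, edgeR adjusted p = 0.0328). Stc2, the other stanniocalcin gene of this list, was at 53.6 and 46.8 CPM in the sense libraries. It was at 47.1 and 49.2 CPM in the antisense libraries (log2 fold change 0.061, SE 0.15, edgeR adjusted p = 0.827). The median log2 fold change of the 8 was -0.77. Of 8 tested in the tumor ECs 0 were called by either tool and 2, both higher, had an unadjusted p under 0.05, as had 4.81% of all genes. Stc1 was at 530, 530 and 1524 CPM in the KO libraries and 272 to 635 CPM in the WT libraries (log2 fold change 0.97, SE 0.37, edgeR adjusted p = 0.957). Of 8 other insulin family ligands and receptors, 3 were tested in each set of ECs and 0 were called by either tool, with 0 at an unadjusted p under 0.05 in the tumor ECs and 1 in the sprout ECs.

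Downstream of the receptors, 1 gene of these lists was called in the sprout ECs, where 3.88% of all genes tested were called. Of 17 receptor adaptors and feedback genes all were tested in the sprout ECs and 0 were called by either tool, with 2 lower and 2 higher at an unadjusted p under 0.05 and a median of 0.028 for the log2 fold change. Of 24 genes of the PI3K-AKT-FOXO-mTOR arm 6 were lower and 4 higher at an unadjusted p under 0.05 (26.7% of all genes passed it) and 1 was called, Pik3r3, a regulatory subunit of PI3K, which fell from 60.4 and 54.8 CPM in the antisense libraries to 23.2 and 26.4 CPM in the sense libraries (log2 fold change -1.22, SE 0.16, edgeR adjusted p = 0.00810). The median of these 24 was -0.077. Among tumor ECs 0 of 16 tested adaptors and 0 of 24 genes of the arm were called by either tool. At an unadjusted p under 0.05 were 3 adaptors (1 lower, 2 higher) and 2 genes of the arm (1 lower, 1 higher). Of all genes tested in the tumor ECs, 4.81% passed this limit. Sos1, the exchange factor that activates RAS, was at 60.5, 36.7 and 94.8 CPM in the KO libraries and at 20.6 to 45.5 CPM in the WT libraries (log2 fold change 1.10, SE 0.40, edgeR adjusted p = 0.957). The others at this limit were Socs3 (log2 fold change 0.95) and Pik3r3 (0.76), both higher, and Gab1 (-1.37) and Pik3r2 (-1.78), both lower.

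Among 11 regulators of Igf2 RNA and noncoding neighbours of Igf2 or Igf2r, 2 were called in the sprout ECs, Igf2os and Hmga2, both lower, and DESeq2 also called Airn. Hmga2, a chromatin protein known to act on Igf2 and Igf2bp2, fell from 300 and 222 CPM in the antisense libraries to 65.1 and 69.2 CPM in the sense libraries (log2 fold change -1.96, SE 0.17, edgeR adjusted p = 0.00263). Of 15 tested imprinted growth genes, 3 were called and all 3 were lower. For both lists the share over all genes tested was 3.03% called lower. The noncoding RNA Meg3 was at 302 and 414 CPM in the sense libraries against 1009 and 1108 CPM in the antisense libraries (log2 fold change -1.56, SE 0.19, edgeR adjusted p = 0.00621). Plagl1, a zinc finger protein known to regulate imprinted genes, was at 93.5 and 136 CPM against 488 and 354 CPM (log2 fold change -1.87, SE 0.24, edgeR adjusted p = 0.0129). Mest, which encodes a protein of embryonic mesoderm, was at 1150 and 1595 CPM against 4772 and 3483 CPM (log2 fold change -1.59, SE 0.23, edgeR adjusted p = 0.0131). The median log2 fold change of these 15 was -0.60, and the other 12 were not called by edgeR, while DESeq2 also called Nnat. Of both lists 0 genes were called in the tumor ECs by edgeR's quasi-likelihood test, with 1 gene of each at an unadjusted p under 0.05, the second of which DESeq2 called. These were Hmga2, at 21.4, 1.62 and 5.85 CPM in the KO libraries and 15.6 to 68.6 CPM in the WT libraries (log2 fold change -2.10, SE 0.74, edgeR adjusted p = 0.955), and Phlda2, an imprinted gene that limits placental growth, at 0.680 CPM or less in the KO libraries and 0.365 to 29.2 CPM in the WT libraries (log2 fold change -5.17, SE 1.66, edgeR adjusted p = 0.909).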

How the data were processed

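RNA-Seq was measured in 9 libraries of tumor ECs and 4 of sprout ECs. For the tumor ECs the authors deposited whole-number counts per gene from featureCounts, for which the submitters' processing notes list Trim Galore 0.5.0, Bowtie2 2.3.4.1, SAMtools 1.9 and Subread 1.6.2 and the methods name STAR. For the sprout ECs the authors deposited HTSeq 0.6.1p1 counts after STAR 2.5.0a, and RSEM 1.2.25 expected counts and TPM. The build was mm10. Closing lines of the HTSeq counts that name no gene were left out; the share of alignments there marked as not unique was 42.6% to 49.6%. RSEM divides such reads between genes, and HTSeq drops them.

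Groups came from the sample labels, and the library from each file. Counts were tested with edgeR 4.0.16 (R 4.3.3) after TMM normalization and a filterByExpr minimum of 10 counts, by its quasi-likelihood test with a robust fit and p adjusted by Benjamini and Hochberg over all genes tested, in 1 fit per set of ECs, at an adjusted p under 0.05 and an absolute log2 fold change over 1. The study used DESeq2, which was an alternative here in version 1.42.0. Other alternatives were DESeq2 size factors, no filter, a mean of at least 10 counts, no fold threshold, a block for the replicate number, each library left out, limma 3.58.1 voom with sample weights (tumor ECs) and RSEM expected counts rounded to whole numbers (sprout ECs). The fits were tested on simulated data. Fold changes are KO over WT and sense over antisense.

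The members and lists were chosen with earlier results of these data known. The genes named are the members, Apln, the sort markers, H19, the called genes of the pathway lists (or up to 4 with the lowest p where 0 were called), the genes most alike in pattern and the leading markers. Airn, Igf2os in the text on loci, Igfbp2, Igfbp6, Stc2, Hnf4a, Amn, Apoa2 and Myl7 were named after their values were seen. The symbol Gtl2 in the imprinted list had no row of its own beside Meg3. Motifs were searched on both strands of RefSeq promoter windows, leaving out the bases after the start site.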

Additional observations from a re-analysis of the deposited data

Results flagged for a closer look

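Igf1r stood apart in WT replicate 3 of the tumor ECs, at 169 CPM against 38.4 to 77.9 CPM in the other 5 WT libraries. The gap to the nearest library was 0.699 of the whole range, above Dixon's critical value for 6 samples. Insr stood apart in WT replicate 1 of the tumor ECs, at 210 CPM against 85.4 to 124 CPM in the other WT libraries, with a gap of 0.694 of the range. Chance flags about 1 in 20 groups examined in this way, and the WT group was examined for 9 members.

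Igf1 lay in opposite directions in the sets of ECs, with a log2 fold change of 3.00 in the tumor ECs and of -1.30 in the sprout ECs and no overlap between groups in either set. Its edgeR adjusted p was 0.906 and 0.0505, so Igf1 was called in neither set, and 60.6% of all genes tested in the sprout ECs had no overlap between groups. The difference between the sets was not tested, since protocol, cells and genetic design differ with the set.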

How the results depend on the processing

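In the tumor ECs 1 gene was called by edgeR, against 116 with DESeq2 (97 lower and 19 higher), 16 without the filter, 2 with voom and 1 to 2 with each library left out (2 without KO replicate 1). Members called were 0, against 1 with DESeq2 and 0 to 0 with each library left out. With the replicate block on replicates 1 to 3, 2 genes were called. Log2 fold changes that changed sign were those of Igf2 (-0.49 for replicates 1 to 3 without the block, and -0.32 to 1.37 with each library left out, while voom gave 2.51), Igfbp3 (-0.24 with voom, -0.23 to 0.34), Igfbp4 (-0.27 to 0.028) and Igfbp5 (0.52 with voom, 0.23 for replicates 1 to 3 without the block, -4.11 to 0.54). In the sprout ECs 565 genes were called, against 854 without the filter, 905 without the fold threshold and 148 to 887 with each library left out, with 148 without sense replicate 1 and 154 without antisense replicate 1. Members called were 2, against 4 with DESeq2, 0 with RSEM expected counts and 0 to 4 with each library left out, where a lone library was assumed to vary like the other group (4 without sense replicate 2, 0 without each of the others). Sign changes in the sprout ECs were those of Insr (-0.16 to 0.064) and Igfbp7 (-2.37 to 0.47) with each library left out. The cause of these shifts was not tested.

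Labels give replicate numbers but no shared animal or day. Deviations of same-numbered tumor libraries correlated at -0.0709, 0.0574 and -0.14, and those of the sprout libraries at -0.434. With 2 sprout libraries in each group the deviations mirror each other, so both sprout pairs give the same value. These correlations do not tie libraries of the same number together. They cannot show whether a day or culture was shared, also under other numbers. With the replicate block 44 genes (41 lower and 3 higher) and 0 members were called in the sprout ECs, with an adjusted p of 0.115 for Igf2 and 0.114 for Igfbp4. With the sprout numbers crossed, an alternative added after seeing the data, 1235 genes (933 lower and 302 higher) and 4 members were called. Over all member fold changes and alternatives, 128 of 144 in the tumor ECs and 78 of 99 in the sprout ECs kept their direction and their side of the thresholds. Igf2 and Igfbp5 had 0 counts in some tumor libraries and Igf1 had as few as 4, and the part of depth in this was not tested.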

Other observations

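The genes whose pattern over the 9 tumor libraries was most alike to each member are given as a description, by Pearson's r of log2(CPM + 1) among 9279 genes with a mean of at least 10 CPM. These libraries share protocol and differ in depth, and r across so many genes is high by selection. Igf1 was most like Azi2 (r = 0.940, and 0.726 without the 2 libraries farthest from the median of the member) and Pde4d (0.897, then 0.960). Igf2 was most like Hnrnpa1 (0.937, then 0.977) and Fbxo45 (0.929, then 0.898). For the receptors these were Herc2 (0.948, then 0.796) and Kif13a (0.939, then 0.761) with Igf1r, Nrf1 (0.947, then 0.928) and Cxcl16 (0.894, then 0.780) with Igf2r, and Heatr5a (0.977, then 0.960) and Ednrb (0.969, then 0.907) with Insr. For the binding proteins they were Acadsb (0.927, then 0.713) and Cyb5r1 (0.925, then 0.741) with Igfbp3, Agfg1 (0.909, then 0.60) and Uggt1 (0.909, then 0.512) with Igfbp4, Slc25a28 (0.925, then 0.889) and Gtse1 (0.907, then 0.908) with Igfbp5, and Trpv4 (0.963, then 0.921) and Dnajb5 (0.961, then 0.810) with Igfbp7. Leaving out the 2 farthest libraries moved r most for Uggt1 and Agfg1, the genes most like Igfbp4.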
